A study of Mus musculus with 14 samples.

Results

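The transcriptome of full-grown, GV-intact mouse oocytes without AGO2 was compared with that of floxed control oocytes. The comparison rests on the 2 libraries labelled *Ago2* null and the 3 labelled *Ago2* fl/fl, 5 of the 14 libraries of the series. The methods of the study name 3 replicates per group, but the series holds only 2 *Ago2* null libraries. The other libraries, of *Ago2* ADH, *Dicer* WT and *Dicer* KO oocytes, are used only where named. *Dicer* KO oocytes come from a different mouse line that loses the gene in oocytes alone, and *Dicer* WT is their control. *Ago2* fl/fl oocytes carry floxed *Ago2* alleles without Cre recombinase, and the labels call them wild-type. In *Ago2* null oocytes the floxed alleles are excised by Cre driven by the oocyte-specific *Zp3* promoter, which is active from the start of oocyte growth, so the gene was intact in the primordial oocyte and in all other cells of the ovary. Both genotypes came from the same scheme of crosses among floxed, ADH knock-in and Cre mice, whose strain background is not given in the sources used here. The females, 4 to 6 weeks old, received 5 IU of equine chorionic gonadotropin 48 h earlier, and milrinone, an inhibitor of phosphodiesterase 3A, kept the oocytes in arrest during collection. Each library was made from 20 oocytes of 3 or 4 pooled animals. The 20638 genes counted are each represented by the transcript with the highest mean count, and 14270 of them had enough reads to be tested.

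AGO2 is the Argonaute of mammals best known to cut its target RNA. It is loaded with a small RNA made by DICER, and a perfectly matched target is cleaved, whereas a partly matched target of a microRNA is repressed through the TNRC6 proteins. In mouse oocytes microRNAs have little effect, while endogenous siRNAs made from long double-stranded RNA, often from pseudogenes paired with their parent genes, are abundant. A GV-intact oocyte is arrested in prophase of the first meiosis and is nearly silent in transcription, so its RNA is mostly the store laid down during growth.

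Counts per library summed over genes ranged from 37624689 to 42925132 in *Ago2* fl/fl and were 40539980 and 38582873 in *Ago2* null oocytes, and 3 counts, the floor used here, correspond to at most 0.0797 CPM (counts scaled to a common library total). Intervals and floors cover counting error only, since amplified reads are not independent molecules. The summed level of 12 oocyte markers was alike, 31875 to 33514 CPM in *Ago2* fl/fl and 31312 and 33967 CPM in *Ago2* null, and that of 9 immune and blood markers stayed at or under 0.789 CPM. By the lane recorded with each library the 3 control libraries shared 1 lane and the 2 null libraries another, so differences between lanes and between genotypes cannot be told apart. Alignments of reads that map to several places are tallied outside the gene counts. They amounted to 0.776 ± 0.0298 per counted read (SD, n = 3) in *Ago2* fl/fl and 2.17 ± 0.0799 (SD, n = 2) in *Ago2* null libraries. By the methods of the study oocytes were collected anew for each replicate. With 2 libraries against 3 an exact permutation test of a single value cannot give a p under 0.2.

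*Ago2* itself (chromosome 15 of GRCm38, 73101625 to 73184947) had 1416, 1509 and 1258 raw counts in control oocytes and 401 and 278 in null oocytes. The groups did not overlap, and reads of *Ago2* remained in both null libraries. The normalized count, scaled by edgeR's TMM method, was 1359 ± 46.6 (SD, n = 3) against 351 ± 75.7 (SD, n = 2). The log2 fold change was -1.95 (standard error 0.128, adjusted p = 1.25e-09). This and every later adjusted p comes from the quasi-likelihood test of edgeR after Benjamini-Hochberg adjustment. Counts cover whole transcripts, so the exons behind the remaining reads cannot be seen.

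No other Argonaute gene passed the test upward. *Ago3* had 6643, 7055 and 5818 counts in the control and 5195 and 4971 in the null libraries. It was lower in both null libraries than in every control library, and fell by 0.26 on the log2 scale (adjusted p = 0.00222), a call that was lost without *Ago2* fl/fl replicate 2, where the adjusted p was 0.0225, and without *Ago2* null replicate 1, where it was 0.0105. *Ago1* had 43 to 90 counts in the control and 36 and 72 in the null libraries, and *Ago4* 47 to 58 and 59 and 72. Neither passed the test. Of 17 genes of the RNA-induced silencing complex and of small RNA processing tested, 2 rose (11.8%) and 3 fell (17.6%), where 18.6% and 19.1% of all genes tested did. *Dicer1*, which makes the small RNAs, had 36314, 38135 and 34185 counts against 53038 and 49518, a gain of 0.59 (adjusted p = 4.74e-08). *Tsnax*, which encodes translin-associated factor X, a nuclease subunit that removes the passenger strand from AGO2, had 5848, 5378 and 5108 counts against 17476 and 18990. This was a log2 fold change of 1.84 (adjusted p = 3.60e-13). *Tnrc6b*, a partner of AGO2 in repression by microRNAs, fell by 0.37.

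In all, 5381 of the 14270 genes tested (37.7%) passed the test at 1% FDR, the false discovery rate used throughout. Up-regulated were 2655 genes (18.6%) and down-regulated 2726 (19.1%). The numbers in both directions were close, but the sizes were not. The median log2 fold change was 0.93 among up-regulated and -0.58 among down-regulated genes. At a change of at least 2-fold 1853 genes (13.0%) remained, 1236 up (8.66%) and 617 down (4.32%), so 66.7% of them were up-regulated (95% Wilson interval 64.5% to 68.8%, which treats genes as independent). At 4-fold or more there were 484 up- and 147 down-regulated genes, and at 8-fold or more 178 and 40. The normalized counts of the groups did not overlap for 9531 genes (66.8%).

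**Figure D1:**
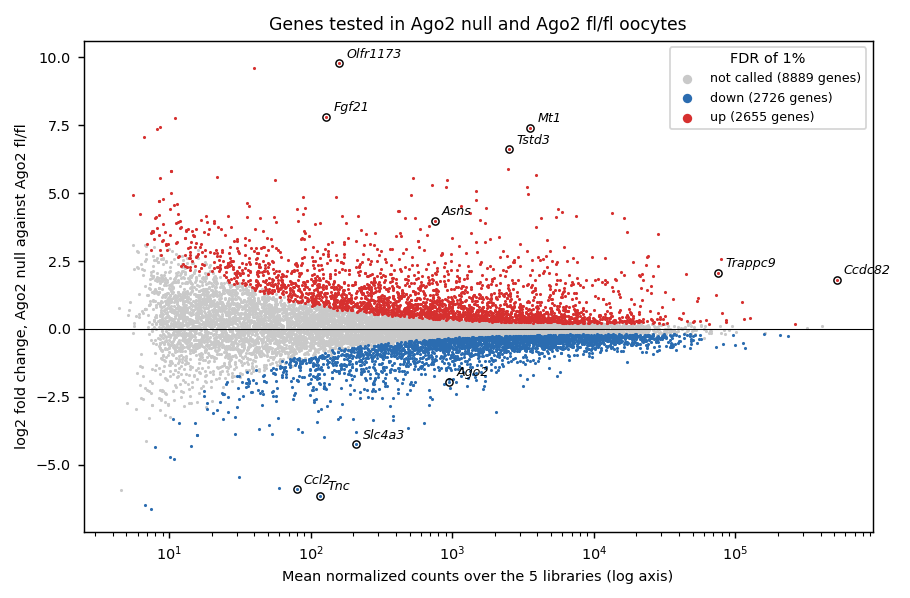
Each point is 1 of the 14270 genes tested, with its mean normalized count over the 5 libraries (log axis) and its log2 fold change in Ago2 null against Ago2 fl/fl oocytes. Red and blue points are the 2655 up- and 2726 down-regulated genes at an FDR of 1%, and gains reach further from 0 than losses.

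The direction of change went with the read count of the gene. Among 3649 genes with a mean under 100 normalized counts, 11.8% were up- and 4.14% down-regulated. Among 884 genes with a mean of 10000 or more, 19.8% were up- and 39.7% down-regulated. Losses of well expressed transcripts were small, since 1 of those 884 genes fell by at least 2-fold, while 49 rose by that much. Of the 100 genes with the most reads in control oocytes 15 rose and 43 fell, and 2 changed at least 2-fold, both upward. *Ccdc82*, a coiled-coil protein gene on chromosome 9, had 269673, 273282 and 255681 counts in the control and 895359 and 858917 in the null libraries, so that this single gene took up 3.50 times the normalized reads (log2 fold change 1.81, adjusted p = 2.00e-15). *Foxj3*, a forkhead transcription factor, had 50127, 51295 and 43042 counts against 109876 and 104648 (1.25, adjusted p = 1.18e-12).

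Where the normalized counts averaged 100 or more and the groups were separate, the 12 largest increases were 33.9-fold or more. *Mt1*, the metallothionein that binds zinc and copper in most cells (chromosome 8, 94178883 to 94180327), had 51, 48 and 61 counts in the control and 8002 and 9009 in the null libraries. This is a change from 52.5 ± 10.4 (SD, n = 3) to 8858 ± 1110 (SD, n = 2) normalized counts, 169.6-fold (log2 fold change 7.41, standard error 0.120, adjusted p = 1.08e-17). *Fgf21*, a hormone best known from the fasting liver (chromosome 7, 45613890 to 45615490), had 0, 2 and 2 counts against 296 and 319. It was thus near the floor in every control library and well above it in both null libraries, with a ratio of pooled rates of 239.8 (exact 95% counting interval 93.2 to 883). *Olfr1173*, an olfactory receptor gene on chromosome 2, had 0, 1 and 0 counts against 426 and 344, a ratio of 1201 (exact 95% counting interval 215 to 47488).

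The other 9 of these increases come from unrelated families. *Tstd3*, a thiosulfate sulfurtransferase-like gene, had 59, 75 and 60 counts in the control and 5434 and 6434 in the null libraries (log2 fold change 6.61). *Deup1*, which builds the deuterosomes of multiciliated cells, had 74, 30 and 49 counts against 2084 and 2211 (5.48). *Nenf*, a secreted neurotrophic protein, had 12, 26 and 44 counts against 1370 and 1090 (5.56). All 3 had at most 75 counts in any control library and lay far above that in both null libraries. *Vav3* had 226, 228 and 213 counts against 7017 and 8481 (5.22), and *Mcf2* 148, 80 and 90 against 3271 and 3476 (5.08). Both encode exchange factors that activate small GTPases. *1700028P14Rik* rose by 5.87, *Uchl4*, a ubiquitin hydrolase gene, by 5.66, and the intestinal defensin genes *Defa43* and *Defa42* by 5.30 and 5.23. The counts of *Uchl4* and of the defensin genes are uncertain because near-identical copies of these genes exist and reads that align to several copies are not counted. Adjusted p-values of these 9 genes ranged from 1.08e-17 for *Uchl4* to 6.97e-12 for *Nenf*.

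**Figure D2:**
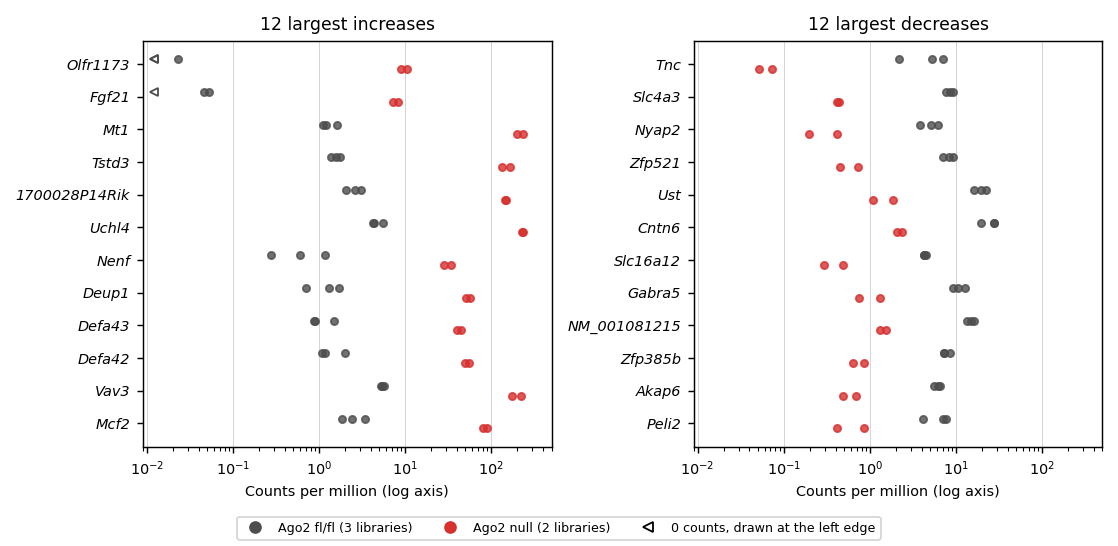
CPM (log axis) of the 12 genes with the largest increases (left) and the 12 with the largest decreases (right), for the 3 Ago2 fl/fl libraries (grey) and the 2 Ago2 null libraries (red). Open triangles at the left edge are libraries with 0 counts, and in each gene the groups are separate.

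The genes with the 12 largest losses had at most 1170 counts in any of the 5 libraries. *Tnc*, which encodes the matrix protein tenascin C, had 94, 224 and 265 counts in the control and 3 and 2 in the null libraries, a ratio of pooled rates of 74.8 (exact 95% counting interval 31.9 to 231). *Slc4a3*, an anion exchanger, had 364, 328 and 344 counts against 17 and 17 (log2 fold change -4.25, adjusted p = 2.93e-10). The next 10 decreases ranged from -3.98 to -3.24. Several of these genes are best known from neurons. *Gabra5*, a subunit of the GABA receptor channel, had 392, 448 and 484 counts against 30 and 51 (-3.35). *Cntn6*, a contactin that guides neurites, had 836, 1170 and 1046 counts against 83 and 91 (-3.46), and the adaptor gene *Nyap2* 162, 217 and 231 against 8 and 16 (-3.98). The others were the zinc finger genes *Zfp521* (-3.78) and *Zfp385b* (-3.33), *Ust*, a sulfotransferase of glycosaminoglycans (-3.67), *Slc16a12*, a monocarboxylate transporter (-3.41), *Akap6*, an anchor of protein kinase A (-3.32), and *Peli2*, a ubiquitin ligase (-3.24). NM_001081215, which has no symbol in the annotation used, fell by 3.34. In every one of these 12 genes both null libraries lay below all 3 control libraries.

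Very few genes switched fully on or off. 5 genes had at most 3 counts in every control library and at least 30 in both null libraries. Besides *Olfr1173* and *Fgf21* these were *Slc7a3*, *Ceacam15* and *Rasgef1c*. *Slc7a3*, a transporter of cationic amino acids, had no count in the control and 76 and 113 in the null libraries, so that it was at least 98.2-fold higher against a floor of 3 counts over the group. *Ceacam15* had 0, 2 and 1 counts against 40 and 62, and *Rasgef1c* 3, 3 and 1 against 33 and 48. The converse held for 3 genes, *Tnc*, *Erbb4* and *Olfr1299*. *Erbb4*, a receptor of neuregulins, had 104, 80 and 116 counts in the control and 0 and 3 in the null libraries, a ratio of 64.1 (exact 95% counting interval 21.7 to 313).

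The metallothionein and the amino acid stress genes allow a look at promoters, so the windows of a neighbouring pair that behaved differently and of 2 genes that rose are shown. Each window runs from 250 bases before to 50 bases after a RefSeq start site (GRCm38.p6), 5′ to 3′ along the gene. In *Mt2*, *Fgf21* and *Asns* this site is the start of the gene span given in the text. In *Mt1* it lies downstream of the gene start given above (94178883), so most of that window lies inside the given span. Capitals in *Mt1* and *Mt2* mark the letters TGCNCNC on either strand, the core of the metal response element at which the zinc sensor MTF1 binds. Such matches are common, since 51.0% of the 32851 promoter windows hold at least 1 and 7.10% hold at least 3.

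Mt1 promoter (chr8:94178839-94179138, plus strand): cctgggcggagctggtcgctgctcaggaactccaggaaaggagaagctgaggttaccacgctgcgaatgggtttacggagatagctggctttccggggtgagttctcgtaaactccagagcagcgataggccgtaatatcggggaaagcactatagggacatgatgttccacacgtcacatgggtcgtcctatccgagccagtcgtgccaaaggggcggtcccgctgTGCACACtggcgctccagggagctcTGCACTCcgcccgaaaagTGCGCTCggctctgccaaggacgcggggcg

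Mt2 promoter (chr8:94172368-94172667, plus strand): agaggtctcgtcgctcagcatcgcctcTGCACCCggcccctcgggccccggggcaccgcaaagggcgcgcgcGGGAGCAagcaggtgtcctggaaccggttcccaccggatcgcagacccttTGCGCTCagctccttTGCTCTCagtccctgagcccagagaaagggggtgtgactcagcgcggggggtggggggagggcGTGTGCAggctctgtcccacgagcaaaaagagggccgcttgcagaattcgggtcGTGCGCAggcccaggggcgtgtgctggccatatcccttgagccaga

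*Mt2* lies next to *Mt1* on the same strand of chromosome 8 (94172618 to 94173567). *Mt1* has 3 of these matches and *Mt2* 6, a number that 0.225% of the windows reach. Those of *Mt1* lie from base -23 to -17, 2 to 8 and 20 to 26, counted from the start site used. The 2 windows are placed differently on their gene spans, so the 2 numbers cannot be compared. In contrast to *Mt1*, *Mt2* had 31, 16 and 13 counts in the control and 22 and 55 in the null libraries. The groups overlapped, and the log2 fold change of 1.06 (standard error 0.554) did not pass the test (adjusted p = 0.125). Of the 27 genes of metallothioneins, zinc sensors and zinc transporters tested, 3 rose (11.1%) and 4 fell (14.8%), below the shares of all genes. *Slc39a10*, a zinc importer, had 33182, 33732 and 29646 counts against 20207 and 18193 (-0.66, adjusted p = 2.42e-08). *Slc30a4*, which moves zinc out of the cytosol, fell by 0.47. *Mtf1* had a log2 fold change under 0.01 in size and did not pass the test.

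For the stress genes, capitals mark TGATGNAA on either strand, the letters of the C/EBP-ATF response element to which ATF4 binds. Of the 32851 windows, 3.97% hold it. *Asns*, asparagine synthetase (chromosome 6, 7675165 to 7693209), is the textbook target.

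Fgf21 promoter (chr7:45615441-45615740, minus strand): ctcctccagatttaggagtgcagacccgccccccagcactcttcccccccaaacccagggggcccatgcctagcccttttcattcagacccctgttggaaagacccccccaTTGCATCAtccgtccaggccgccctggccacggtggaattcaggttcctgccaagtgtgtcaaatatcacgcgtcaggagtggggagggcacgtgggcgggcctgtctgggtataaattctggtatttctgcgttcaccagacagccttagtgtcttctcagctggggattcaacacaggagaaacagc

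Asns promoter (chr6:7693160-7693459, minus strand): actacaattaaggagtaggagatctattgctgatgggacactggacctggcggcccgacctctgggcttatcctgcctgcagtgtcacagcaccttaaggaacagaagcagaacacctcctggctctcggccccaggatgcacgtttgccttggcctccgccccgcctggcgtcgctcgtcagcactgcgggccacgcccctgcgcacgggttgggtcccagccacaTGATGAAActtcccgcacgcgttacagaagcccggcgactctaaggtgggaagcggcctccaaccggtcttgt

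*Asns* had 110, 109 and 116 counts in the control and 1672 and 1643 in the null libraries, a 15.8-fold rise (log2 fold change 3.98, standard error 0.123, adjusted p = 3.61e-14). Both genes have 1 match, in *Fgf21* from base -139 to -132 on the opposite strand and in *Asns* from -23 to -16, counted from the start site. Of 24 genes of the integrated stress and unfolded protein response tested, 12 rose (50%) and 4 fell (16.7%), and the median log2 fold change was 0.57, against 0.01 over all genes tested. Among the 12 that rose 5 hold a match in at least 1 of their windows, *Asns*, *Chac1*, *Fgf21*, *Herpud1* and *Vldlr*. 2 of the 4 that fell hold such a match, and 1 of the other 8. A gene can have several windows, so these numbers cannot be set beside the 3.97% of single windows. Besides *Asns* and *Fgf21*, *Psat1*, an enzyme of serine synthesis, had 23, 18 and 16 counts against 193 and 172 (3.35), *Sesn2*, a sensor of leucine, rose by 1.44, and *Atf4* itself had 7728, 8820 and 8326 counts against 11991 and 13073 (0.69, adjusted p = 1.13e-06). The list also holds members that did not rise. *Slc7a11*, a cystine transporter and target of ATF4, fell by 0.24. The chaperone gene *Hspa5* did not pass the test (-0.24), and *Hsp90b1*, the chaperone GRP94, had 12909, 13128 and 11691 counts against 5304 and 6192 (-1.04, adjusted p = 6.23e-09). *Pdia4* fell by 0.63 and *Atf3* by 1.42. The weaker calls of this list rest on single libraries. *Herpud1* had an adjusted p of 0.0102 without *Ago2* fl/fl replicate 2, 0.0539 without *Ago2* null replicate 1 and 0.0174 without replicate 2. *Chac1* had 0.0109 without *Ago2* fl/fl replicate 2 and 0.0188 without *Ago2* null replicate 2, *Slc7a11* had 0.020 without *Ago2* fl/fl replicate 2, and *Atf3* 0.0153 without *Ago2* fl/fl replicate 3 and 0.0410 without *Ago2* null replicate 2.

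**Figure D3:**
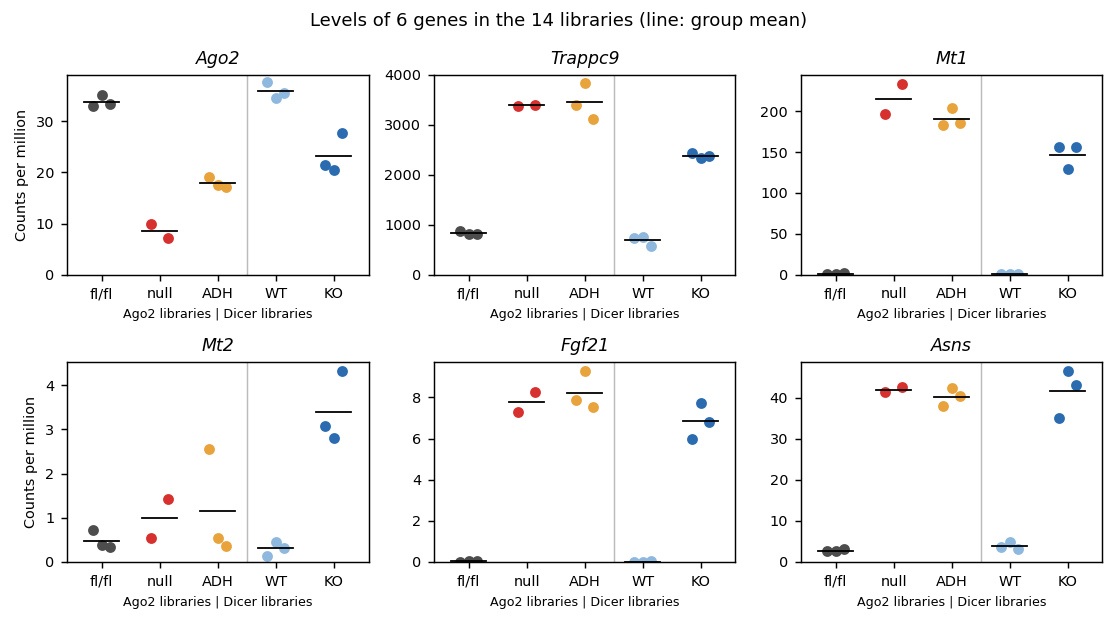
CPM of 6 genes in each of the 14 libraries, grouped as Ago2 fl/fl, Ago2 null, Ago2 ADH, Dicer WT and Dicer KO, with a line at each group mean. Mt1, Fgf21 and Asns are high in all libraries of the 3 mutant genotypes, whereas Mt2 stays within the control range in 1 Ago2 null library. Mt2 ranges from 0.351 to 2.56 CPM in Ago2 ADH libraries. It is higher in all Dicer KO libraries (2.80 to 4.32 CPM) than in any Dicer WT library (0.143 to 0.451 CPM).

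A short list holds 8 protein-coding genes known as sources of endogenous siRNAs in oocytes through pairing with antisense or pseudogene RNA. It was put together from general knowledge and with earlier results of these data known, it is not a complete set of such genes, and it is not independent evidence of its direction. All 8 were up-regulated, where 18.6% of all genes tested were, with a median log2 fold change of 1.14. *Rangap1*, the activator of the GTPase RAN, had 443, 486 and 452 counts in the control and 4797 and 4263 in the null libraries (3.39, adjusted p = 2.03e-15). *Tbcd*, a cofactor that folds tubulin dimers, had 1011, 1041 and 896 counts against 6939 and 6573 (2.87, adjusted p = 1.40e-15), and *Ran* 3101, 2735 and 2563 against 7791 and 7852 (1.57). *Oog4* and *Ppp4r1* both rose by 1.14, *Hdac1* by 1.07, *Kif4* by 0.82 and *Pdzd11* by 0.57. In each of the 8 genes both null libraries were above all control libraries, and the count of *Oog4* is uncertain because of its near-identical copies. A further list holds genes that were also assayed by quantitative RT-PCR in these mutants, which makes it no independent evidence of a direction. Of its 11 genes 6 rose and 2 fell. *Lcp1*, an actin-bundling protein, rose by 2.66 and *Optn* by 2.29, *Frmd3* fell by 3.69, and *Stx19*, a syntaxin, had 36, 16 and 19 counts against 2 and 0, a ratio of 22.8 (exact 95% counting interval 6.07 to 191.6), whose adjusted p was 0.0301 without *Ago2* null replicate 2.

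**Figure D4:**
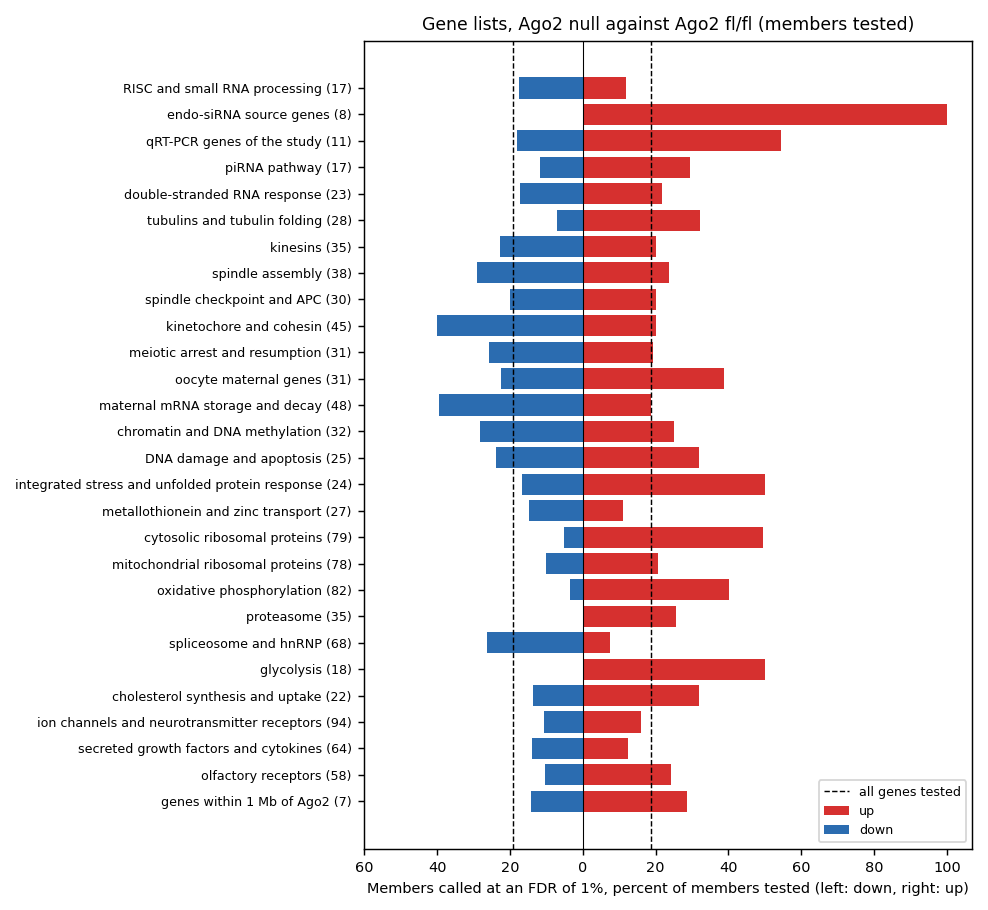
Percent of the tested members of 28 gene lists that were up-regulated (red, to the right) or down-regulated (blue, to the left) at 1% FDR in Ago2 null against control oocytes, with the number tested in brackets. Dashed lines mark the shares among all genes tested, 18.6% up and 19.1% down, and the bar at 100% is that of an incomplete list of 8 endo-siRNA source genes.

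Full-grown oocytes store the parts of the meiotic spindle before they resume meiosis. Of 28 tubulin and tubulin folding genes, 9 rose (32.1%, against 18.6% of all genes) and 2 fell (7.14%, against 19.1%). *Tuba1c* had 4152, 4060 and 3471 counts against 10186 and 11917 (1.60), *Tuba1b* rose by 1.22 and *Tubb5* by 0.66, whereas *Tuba3b* fell by 1.41. Alpha-tubulin genes are near-identical copies and reads they share are not counted, so these values are uncertain. Of the other tubulin folding cofactors *Tbca*, *Tbcb*, *Tbcc* and *Tbce*, none passed the test, with log2 fold changes from -0.06 to 0.17. Of 35 kinesin motors 7 rose (20%) and 8 fell (22.9%), near the shares of all genes, *Kif15* by 1.23 and *Kifc1* by 0.94 upward, *Kif23*, a motor of cytokinesis, by 0.50 downward. Of 38 spindle assembly genes 9 rose (23.7%) and 11 fell (28.9%). *Prc1*, which bundles microtubules at the midzone, had 25396, 27068 and 23488 counts against 54151 and 48675 (1.11, adjusted p = 1.35e-11), and *Hmmr* rose by 1.34. *Haus1*, a subunit of the augmin complex, had 1942, 2024 and 1408 counts against 692 and 690 (-1.28, adjusted p = 5.39e-08), while its partners *Haus4* and *Haus8* rose by 1.15 and 0.64. *Aurka* and *Aurkc*, kinases of the spindle poles and chromosomes, fell by 0.30 and 0.47.

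Of 45 kinetochore and cohesin genes 9 rose and 18 fell, 40.0% down where 19.1% of all genes were. *Sgo2a*, the shugoshin that protects cohesin between the meiotic divisions, had 5458, 5780 and 4904 counts in the control and 2850 and 2630 in the null libraries (-0.88, adjusted p = 8.89e-09). Its paralogue *Sgo1* fell by 0.60, the cohesin subunit *Rad21* by 0.65, and the kinetochore genes *Cenpw* and *Cenpf* by 0.88 and 0.57. In the opposite direction, *Stag3*, the meiotic cohesin subunit, rose by 1.45 and *Cenpk* by 1.31. The spindle checkpoint and anaphase-promoting complex list had 6 genes up and 6 down among 30 (20% each way, near the shares of all genes). *Ube2c*, the ubiquitin-conjugating enzyme of that complex, had 8651, 10012 and 9031 counts against 24207 and 21453 (1.39, adjusted p = 1.43e-11), and *Mad2l1* fell by 0.34.

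Meiotic arrest depends on cyclic AMP. Of 31 genes of arrest and resumption 6 rose (19.4%) and 8 fell (25.8%), and no change reached 2-fold. *Gpr3*, the receptor that keeps cyclic AMP high, had 3410, 3336 and 2854 counts against 2137 and 1700 (-0.65, adjusted p = 5.24e-06), and *Pde3a*, which degrades cyclic AMP, fell by 0.49. *Mos*, the kinase that later holds the egg in metaphase II, had 11403, 12835 and 11058 counts against 6034 and 5160 (-0.98, adjusted p = 2.48e-09). *Wee1* rose by 0.80. Of 31 oocyte maternal genes 12 rose (38.7%) and 7 fell (22.6%). *Zp2* and *Zp3*, of the egg coat, rose by 0.40 and 0.35, *Gdf9* and *Bmp15*, growth factors to the follicle, did not pass the test (0.04 and -0.16), and *Kit*, the receptor for the follicle's kit ligand, had 15778, 15360 and 13959 counts against 8148 and 8394 (-0.77, adjusted p = 1.34e-08).

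Of 48 genes that store, silence and remove maternal mRNA 19 fell (39.6%, where 19.1% of all genes tested did) and 9 rose. *Cnot1*, the scaffold of the CCR4-NOT deadenylase, had 26214, 26948 and 24462 counts in the control and 16006 and 13972 in the null libraries (-0.70, adjusted p = 2.32e-08). *Btg4*, its adaptor at maternal mRNA clearance, fell by 0.26 and the poly(A)-binding protein gene *Pabpn1l* by 1.18. The other way went *Zfp36l2*, which recruits the deadenylase to AU-rich mRNA and rose by 1.20, *Pabpc1* (1.10), *Ddx6* (1.04), a helicase of silenced mRNA stores, and *Ythdf2* (0.96), a reader of methylated mRNA. Of 68 spliceosome and hnRNP genes 18 fell (26.5%) and 5 rose (7.35%), *Srsf3* by 0.61 downward and *Snrpb* by 1.88 upward. Among 32 chromatin genes 9 fell (28.1%) and 8 rose (25%). *Dnmt1*, the maintenance DNA methyltransferase, had 147955, 148576 and 128055 counts against 85147 and 76768 (-0.72, adjusted p = 2.82e-09). *Dnmt3a*, which methylates the oocyte genome, and the Polycomb gene *Eed* both fell by 0.73, and *Tet3* by 0.45. *Ehmt2*, the histone methyltransferase G9a, had 19, 50 and 33 counts against 127 and 163 (2.18), and *Kdm1b*, a histone demethylase of oocytes, rose by 0.93.

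Of 79 cytosolic ribosomal protein genes 39 rose (49.4%, against 18.6% of all genes) and 4 fell (5.06%, against 19.1%), with a median of 0.22. *Rps6* had 8533, 8321 and 7688 counts against 17359 and 15908 (1.11, adjusted p = 2.79e-11), and *Rps23* 1519, 1494 and 1232 against 10007 and 9581 (2.88, adjusted p = 1.01e-15). Ribosomal protein genes have many processed pseudogenes, and reads that align to several places are left out of the counts, so these counts are uncertain. Of 78 mitochondrial ribosomal protein genes 16 rose (20.5%) and 8 fell (10.3%), with a median of 0.06. *Mrpl9* rose most among them (1.97). Of 82 oxidative phosphorylation genes 33 rose (40.2%) and 3 fell (3.66%), with a median of 0.18. *Atp5g3*, which encodes the c subunit of the ATP synthase ring, rose by 1.10 and *Sdha*, of complex II, by 0.74, while *Atp5k* fell by 0.95. Of 18 glycolysis genes 9 rose (50%), with a median of 0.36. None fell by edgeR or DESeq2, and 2 were lower at an unadjusted p under 0.05. *Gapdh* had 3536, 4150 and 3696 counts against 15058 and 11094 (1.87), a value that its many pseudogenes make uncertain, and *Pkm* and *Gpi1* rose by 0.41 and 0.59. Of 35 proteasome genes 9 rose (25.7%), led by *Psmd13* (1.94) and *Psmb5* (1.17), and none fell by edgeR, by DESeq2 or at an unadjusted p under 0.05.

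Of 23 genes that respond to double-stranded RNA 5 rose (21.7%) and 4 fell (17.4%), shares near those of all genes tested. *Oas3*, a sensor that activates RNase L, had 1730, 1639 and 1339 counts against 6615 and 6626 (2.17, adjusted p = 1.41e-13), and *Eif2ak2*, the kinase PKR, 95, 107 and 121 against 196 and 205 (0.98, adjusted p = 0.00144, and 0.0165 without *Ago2* null replicate 2). The receptor gene *Tlr3* had 606, 836 and 908 counts against 233 and 304 (-1.46, adjusted p = 7.26e-06), and *Ddx58*, which encodes the sensor RIG-I, fell by 0.79. Of the interferon targets *Ifit1*, *Stat2* and *Bst2*, none passed the test, with log2 fold changes from -0.03 to 0.26. In the piRNA pathway, which silences transposons in germ cells, 5 of 17 genes rose (29.4%) and 2 fell (11.8%). *Piwil2*, a Piwi protein of the Argonaute family, had 148, 124 and 127 counts against 556 and 584 (2.19, adjusted p = 4.35e-09). *Ddx4*, the germ cell helicase VASA, rose by 1.24 and *Mael* by 0.81, whereas *Piwil1* did not pass the test (-0.04).

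Among 25 genes of DNA damage and apoptosis 8 rose (32%) and 6 fell (24%). *Pmaip1*, which encodes the pro-apoptotic protein NOXA, had 12, 10 and 5 counts in the control and 179 and 181 in the null libraries (4.40, adjusted p = 1.58e-08). *Mcl1*, the survival protein that NOXA binds, rose by 1.05 and *Bcl2l1* fell by 0.42. *Brca2*, of recombination repair, fell by 0.41. Of 22 cholesterol genes 7 rose (31.8%) and 3 fell (13.6%), with *Cyp51*, a demethylase of lanosterol, up by 1.12.

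Families best known from other tissues showed some of the widest ranges. Of 1096 olfactory receptor genes 58 had enough reads to be tested, and 14 of them rose (24.1%) and 6 fell (10.3%), each by at least 2-fold. Genes with reads in 1 group alone pass the filter, so these shares follow partly from it. *Olfr1173*, *Olfr1466* and *Olfr476* were tested only through their null counts, and *Olfr1299* only through its control counts. *Olfr613* had 108, 142 and 176 counts against 677 and 695 (2.35), and *Olfr214* 156, 211 and 191 against 23 and 22 (-2.95). *Olfr1466* and *Olfr476* had no count in any control library and 15 and 17, and 25 and 17, in the null libraries, so they were at least 16.6- and 21.8-fold higher against a floor of 3 counts over the group. Of 94 ion channel and neurotransmitter receptor genes tested 15 rose (16.0%) and 10 fell (10.6%). *Gabrg3*, a subunit of the receptor to which *Gabra5* belongs, had 109, 96 and 71 counts against 695 and 571 (2.87, adjusted p = 3.01e-10), so 2 subunits of 1 receptor family moved in opposite directions. Of 64 secreted growth factors and cytokines 8 rose (12.5%) and 9 fell (14.1%), below the shares of all genes. *Ccl2*, a chemokine that attracts monocytes, had 111, 140 and 150 counts against 4 and 0, a ratio of 64.3 (exact 95% counting interval 24.9 to 237), whereas *Ccl6* had 40, 30 and 15 against 419 and 537 (4.17). *Tgfb2* fell by 0.65 and *Cxcl13* by 2.23.

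The summed level of markers of cells around the oocyte was lower in both null libraries. The 17 granulosa and cumulus markers summed to 112 to 121 CPM in *Ago2* fl/fl and 83.6 and 92.3 CPM in *Ago2* null libraries, and from 2 to 3 of them were at 0 in each control library. Of 13 tested 2 fell (15.4%, against 19.1% of all genes), *Cyp19a1* (aromatase) with 2103, 1993 and 1607 counts against 1146 and 1212 (-0.59) and *Has2*, which makes the cumulus matrix, with 51, 45 and 53 against 19 and 12 (-1.59, adjusted p = 0.00946). Leaving out any 1 of the 5 libraries ended the call of *Has2*, with adjusted p-values from 0.0137 to 0.0783. None of the 13 rose by edgeR or DESeq2, and 3 were higher at an unadjusted p under 0.05. Of the defining markers, *Amh* and *Foxl2* had at most 7 counts in any of these libraries and were not tested, and *Fshr* did not pass the test (-0.78). By its counts *Cyp19a1* supplied a large part of the granulosa and cumulus sum, so that sum depends strongly on this gene. The 11 stroma and endothelium markers summed to 67.9 to 75.1 CPM against 59.1 and 61.7 CPM, and *Kdr*, a receptor of endothelial cells, fell by 2.57 (adjusted p = 0.00136, and 0.0167 without *Ago2* null replicate 1). In bulk samples fewer cells of a type and less RNA per cell cannot be told apart, and the part of such cells in the losses of *Tnc*, *Ccl2* and other genes of somatic cells was not tested.

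Of 10 genes within 1 Mb of *Ago2* on chromosome 15, 7 could be tested, of which 2 rose (28.6%) and 1 fell (14.3%). With 18.6% and 19.1% over all genes, this small count does not set the region apart. *Trappc9*, a subunit of a vesicle tethering complex (72589620 to 73061238), had 37172, 34471 and 30875 counts in the control and 137165 and 131357 in the null libraries. Both null libraries were far above all control libraries, at 4.19-fold (log2 fold change 2.07, standard error 0.0526, adjusted p = 2.80e-15). The same gene had 830.5 ± 33.5 CPM (SD, n = 3) in *Ago2* fl/fl, 684 ± 91.5 (SD, n = 3) in *Dicer* WT and 2377 ± 52.7 (SD, n = 3) in *Dicer* KO oocytes, whose *Ago2* gene was not targeted. *Col22a1*, a collagen, rose by 1.11 and *Dennd3* fell by 0.74. *Gpr20* had 2, 0 and 0 counts in the control, none in either null library and 642, 558 and 481 in the *Ago2* ADH libraries.

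*Ago2* ADH oocytes keep an AGO2 protein that binds small RNAs but cannot cleave, from a knock-in allele beside the excised floxed one. Setting the 2 null libraries against the 3 *Ago2* ADH libraries therefore asks what the absence of the whole protein adds. All *Ago2* ADH libraries were recorded in lane 2 and both null libraries in lane 3. A lane effect would thus enter these differences too, and its size was not tested. Of 14363 genes tested 22 differed at an FDR of 1% (0.153%), 8 higher (0.0557%) and 14 lower (0.0975%) in null oocytes, and 1440 had an unadjusted p under 0.05. The 22 entries may not all be separate genes, since some have nearly the same counts. *Mid1* had 1114 and 1028 counts in the null libraries and NM_183151 had 1148 and 1074. *Oog1* had 2003 and 2191, and *Gm2042* 2003 and 2192. *Ago2* was among the 14, with 753, 709 and 535 counts in *Ago2* ADH oocytes. *Gpr20* was at least 398-fold lower in null than in *Ago2* ADH oocytes against a floor of 3 counts over the group. Its counts in the control were 2, 0 and 0, so the *Ago2* ADH level was the one that departed from the control. *Slc4a3* had 167, 241 and 176 counts in *Ago2* ADH against 17 and 17 in null oocytes (-3.61, adjusted p = 3.42e-06) and so stood between null and control levels. *Wdfy1*, an endosomal protein, did the same in the other direction, with 1998, 2309 and 1774 counts in *Ago2* ADH, 4199 and 3607 in null and 389 to 472 in control oocytes (0.85 higher in null, adjusted p = 2.72e-05). *Gli3*, a transcription factor of the Hedgehog pathway, had 2368 to 4209 counts in control, 1526 and 1336 in null, and 2071 to 2943 in *Ago2* ADH oocytes (-0.87, adjusted p = 0.000176). Further down the list, *Hpse*, heparanase, had 844 to 1077 counts in control, 15429 and 17510 in null, and 8987 to 12751 in *Ago2* ADH oocytes, and was 0.46 higher in null (adjusted p = 0.00720). *Lancl1*, a glutathione-binding protein gene, had 8680 to 10801, 37257 and 35956, and 18112 to 28139 counts in that order (0.54 higher in null, adjusted p = 0.000608). Both genes were thus highest in null oocytes. *Ccnd2*, cyclin D2, had 441 to 557 counts in control, 285 and 228 in null, and 536 to 612 in *Ago2* ADH oocytes (-1.30, adjusted p = 0.000608). *Tmeff2*, a transmembrane proteoglycan, had 216 to 265 counts in control and 260 and 272 in null, but 37 to 122 in *Ago2* ADH oocytes, so here the null libraries lay near the control level (1.79 higher than in *Ago2* ADH, adjusted p = 0.00913). The 4 genes of this group were picked after their values were seen. *Erbb4* was lower in null than in *Ago2* ADH oocytes as well, with 28, 59 and 51 counts in the latter (adjusted p = 0.00835). The number of these calls was small and depended on the libraries, since it was 4 without *Ago2* null replicate 2, 9 without replicate 1, 11 without *Ago2* ADH replicate 1 and 12 without *Ago2* ADH replicate 3. The null and *Ago2* ADH oocytes share their control libraries, so each comparison with the control is given only by its own values.

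*Dicer* KO oocytes lack the enzyme that makes the small RNAs. The change in *Ago2* null oocytes was compared with the change from *Dicer* WT to *Dicer* KO oocytes by an interaction test. This test shares no library between the 2 series. The *Dicer* WT libraries were recorded in lanes 1, 2 and 3 and the *Dicer* KO libraries in lanes 5, 6 and 7. Lane effects within either series would therefore enter this test as well. Of 14826 genes tested 452 (3.05%) changed differently, 155 more upward (1.05%) and 297 more downward (2.0%) in *Ago2* null oocytes. *Myo10*, an unconventional myosin, had 23145, 23408 and 20423 counts in *Ago2* fl/fl and 16918 and 13490 in *Ago2* null libraries, but 3536, 4106 and 3588 in *Dicer* WT and 10861, 9841 and 12539 in *Dicer* KO libraries. It fell with loss of AGO2 and rose with loss of DICER, a difference of -2.42 (standard error 0.102, adjusted p = 1.94e-12), and its level in the 2 kinds of control oocytes differed too. *Rnf168*, a ubiquitin ligase at DNA breaks, had 10883, 11414 and 10347 counts against 7046 and 7009 in the *Ago2* series and 6294, 6596 and 6565 against 14994, 12925 and 14655 in the *Dicer* series (-2.07, adjusted p = 2.22e-12). *Wdr76* also moved in opposite directions (-1.66). *Plbd1*, a phospholipase B-like gene, had 80, 75 and 121 counts against 122 and 92 with loss of AGO2, where it did not pass the test, and 276, 216 and 151 against 7610, 6824 and 8639 with loss of DICER (-5.25, adjusted p = 2.26e-10). *Akap6* had 375, 358 and 378 counts in *Dicer* WT and 222, 165 and 146 in *Dicer* KO libraries, a smaller fall than in *Ago2* null oocytes (-2.66, adjusted p = 2.10e-05). The count of such genes was 201 without *Ago2* null replicate 2, 253 without *Ago2* fl/fl replicate 2, 278 without *Ago2* fl/fl replicate 3, 284 without *Dicer* WT replicate 2 and 299 without *Dicer* KO replicate 2.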

How the data were processed

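Per the labels and the methods of the study, RNA of pooled oocytes was amplified with a kit that does not keep strand and sequenced. Reads were aligned to mm10 with TopHat, keeping up to 100 alignments per read, and the deposited values are raw counts per RefSeq transcript, made by the authors with HTSeq in its intersection-strict mode. The submitters' processing notes name TopHat2 2.0.7, HTSeq 0.6.1 and DESeq 1.10.0.

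Of 26495 transcript IDs, 26081 were matched to gene symbols in RefSeq and 113 in GENCODE, and 301 kept their ID. An ID kept this way counts as a gene of its own, even where its counts nearly repeat those of a named gene. For each gene the transcript with the highest mean count was used, which left 20638 genes. The 5 summary lines of each file were left out of library sizes and tests. Reads outside transcripts amounted to 0.171 per counted read in *Ago2* fl/fl and 0.247 in *Ago2* null libraries, and alignments of reads with several alignments to 0.776 and 2.17.

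Genes were filtered by edgeR (4.0.16) filterByExpr, with a minimum count of 10 and a total of 15, normalized by TMM and tested with the quasi-likelihood test in R 4.3.3, with Benjamini-Hochberg adjustment over all genes tested and a threshold of 1% FDR. *Ago2* null was set against *Ago2* fl/fl and against *Ago2* ADH libraries, and its change against that of *Dicer* KO by an interaction term. Standard errors are the log2 fold change divided by the square root of F. Normalized counts are counts scaled to the mean effective library size, and CPM are counts scaled to a common total of gene counts. Ratios near 0 counts have exact conditional intervals on pooled counts, and shares have Wilson intervals. On simulated counts for 14180 genes with 2 libraries against 3, edgeR recovered 45 of 50 genes raised 2-fold, 38 of 50 lowered to 0.5 and all 50 changed 4-fold either way, with 1 false call. The spread between simulated libraries was assumed, and only 50 genes were changed at each fold. In the data 37.7% of genes were called, so these recoveries and false calls cannot be carried over to them.

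Named genes were *Ago1* to *Ago4* and *Dicer1*, the 12 largest changes each way among called genes that average 100 or more normalized counts and whose groups are separate, the genes called and changed at least 2-fold among the 100 with the highest CPM, those near silent (at most 3 counts) in one group and at 30 or more in the other, members of gene lists, and the 5 smallest p-values in each of the other 2 comparisons. A few genes that meet this rule are not reported here. The members and lists were chosen with earlier results of these data known. Alternatives were DESeq2 1.42.0, other normalizations and filters, all transcripts, all groups in 1 fit, a replicate block, leaving out each library, and an FDR of 5%.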

Additional observations from a re-analysis of the deposited data

Results flagged for a closer look

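For 34 named genes the change in *Ago2* null oocytes differed from that in *Dicer* KO oocytes by the interaction test. Differences are given as the log2 change with loss of AGO2 minus that with loss of DICER. Among all 14826 genes tested 452 differed (3.05%). Some genes were named for the smallest p-values in this same test and others for the size of their change. The 34 genes therefore follow partly from that choice and cannot be set beside this share. Among genes that rose with loss of AGO2, *Tstd3* differed by 1.11 (standard error 0.214, adjusted p = 0.00243), *Deup1* by 2.49 (0.352, 0.000116), *Vav3* by 0.73 (0.136, 0.00186) and *Wdfy1* by 1.61 (0.170, 3.14e-06). *Dicer1* differed by -0.70 (0.0815, 1.16e-05), and it is the targeted gene in the *Dicer* series.

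Among genes that fell, *Slc4a3* differed by -1.43 (0.324, 0.00872), *Cntn6* by -1.12 (0.245, 0.00739) and *Akap6* by -2.66 (0.326, 2.10e-05). *Erbb4* differed by -5.35 (0.748, 0.000104), a fitted value that depends on how counts near 0 are treated. *Ago2*, targeted here and not in the *Dicer* series, differed by -1.42 (0.179, 2.91e-05).

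The 5 smallest p-values were those of *Myo10* (-2.42, standard error 0.102, adjusted p = 1.94e-12), *Rnf168* (-2.07, 0.0905, 2.22e-12), *Wdr76* (-1.66, 0.0855, 3.74e-11), *Plbd1* (-5.25, 0.30, 2.26e-10) and *Ube2r2* (-2.12, 0.127, 4.59e-10). *Ube2r2* rose from 749 to 1280 normalized counts with loss of AGO2 and from 428 to 3179 with loss of DICER.

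The other 19 genes differed by less than 2 on this scale. A gene more downward by this measure can still have risen in both series. *Haus8* rose from 2733 to 4161 normalized counts with loss of AGO2 and from 361 to 1808 with loss of DICER. The change was more upward with loss of AGO2 for *Piwil2* (1.59, standard error 0.359, adjusted p = 0.00863), *Hpse* (1.08, 0.119, 5.10e-06), *Psmb5* (0.88, 0.143, 0.000575), *Ddx4* (0.76, 0.164, 0.00616), *Hspa5* (0.75, 0.139, 0.00184), *Cenpk* (0.60, 0.111, 0.00179), *Oas3* (0.45, 0.102, 0.00908) and *Zp3* (0.41, 0.0867, 0.00599). It was more downward for *Haus8* (-1.72, 0.134, 3.44e-08), *Hdac1* (-0.90, 0.159, 0.00129), *Gapdh* (-0.77, 0.127, 0.000666), *Ube2c* (-0.62, 0.0920, 0.000203), *Prc1* (-0.56, 0.0827, 0.000187), *Mrpl9* (-0.54, 0.104, 0.00242), *Gpr3* (-0.51, 0.113, 0.00801), *Tnrc6b* (-0.50, 0.110, 0.00704), *Oog4* (-0.42, 0.0780, 0.00180), *Pdzd11* (-0.41, 0.0902, 0.00781) and *Kif4* (-0.40, 0.0789, 0.00325).

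Reads that the gene counts do not use also differed between the groups. Alignments of reads with several alignments amounted to 2.17 ± 0.0799 (SD, n = 2) per counted read in *Ago2* null and 0.776 ± 0.0298 (SD, n = 3) in *Ago2* fl/fl libraries, a ratio of 2.79. Reads outside transcripts amounted to 0.247 ± 0.00503 (SD, n = 2) and 0.171 ± 0.00296 (SD, n = 3) per counted read, a ratio of 1.45. Both gave p = 0.2 in a two-sided exact permutation test, the smallest p it allows with 2 libraries against 3. The ratios to the control were 2.80 and 1.44 in *Ago2* ADH and 2.24 and 1.29 in *Dicer* KO oocytes. Which sequences these reads came from was not tested.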

How the results depend on the processing

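The number of genes mis-regulated in *Ago2* null oocytes was 5534 by DESeq2, 5379 and 5397 with the other normalizations, 5973 without the filter, 5228 with at least 10 counts in every library and 4216 to 5026 when 1 library was left out, and with 1 null library left that library is assumed to vary like the others. Of those changed at least 2-fold 64.1% to 67.5% were up-regulated when 1 library was left out. The number that differed from *Ago2* ADH oocytes (22) was 54 by DESeq2, 78 without the filter, 42 at an FDR of 5%, and 4 to 16 when 1 library was left out. The number that changed differently in *Dicer* KO oocytes (452) was 736 by DESeq2, 808 without the filter, 1058 at an FDR of 5%, and 201 to 651 when 1 library was left out. The cause of these differences was not tested. Of 213 named genes called, none reversed in any setting run, 185 kept their call in all of them and 28 lost it in at least 1. These 213 genes were picked in part by size of change, so their stability does not stand for that of all genes called. The median of 9 of the 28 gene lists changed sign in at least 1 setting.

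The labels give replicate numbers that the groups share. Same-numbered *Ago2* fl/fl and *Ago2* null libraries did not deviate together (r = -0.0275 and -0.0184 across genes, in 2 pairs). The deviations of the 2 null libraries mirror each other, so these pairs are not separate checks. The numbers were not taken as pairs in any comparison, and pairing in the *Ago2* ADH and *Dicer* libraries was not checked. With the replicate number as a block, 4378 genes were called against the control, 105 against *Ago2* ADH and 146 in the interaction with *Dicer* KO. The filter on low counts kept 6368 genes out of the tests.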
